A study of Homo sapiens with 9 samples.

Results

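TC32 cells that received Wnt3a together with SB-505124 were compared with TC32 cells that received vehicle. TC32 is an established Ewing sarcoma line, a tumour of bone and soft tissue driven by the fusion oncogene EWSR1-FLI1. The comparison used 6 of the 9 libraries of the study, 3 per group, and all 6 could be assigned from the labels; the 3 libraries given Wnt3a alone were left out. Vehicle cells received PBS and DMSO, the solvents used for the additions. The other cells, called inhibitor cells here, received Wnt3a for 28 h, the first 4 h without and the last 24 h with SB-505124. Both groups grew in medium with 10% serum, so the ligands carried by serum were present throughout, and no dose was found in the labels. No group received SB-505124 without Wnt3a, so in this comparison the effect of the ligand and that of the inhibitor cannot be told apart. Nothing in the labels tells whether the replicates were grown as separate cultures, so the p-values reflect only how far these libraries scatter, and that scatter may be technical.

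Wnt3a binds Frizzled receptors with LRP co-receptors, which stops the degradation of β-catenin and lets it act with TCF and LEF factors on target genes, many of which feed back to restrain the pathway. TGF-β and activin ligands bind receptor kinases that phosphorylate SMAD2 and SMAD3, and the target genes include collagens, other matrix genes and feedback inhibitors. SB-505124 inhibits the type I receptors ALK4, ALK5 and ALK7, through which TGF-β, activin and NODAL act. The title of the series names angiogenesis, and in Ewing sarcoma the fusion protein is known to activate some genes, such as NKX2-2 and NR0B1, and to repress mesenchymal ones.

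RNA was polyadenylated, and the value per gene is the expected count, the number of reads that RSEM assigns to a gene when it shares out reads that fit several. Libraries held 28844348 to 38637007 counts. They are given below as CPM, that is TMM-scaled counts relative to the library total, where TMM corrects that total for differences in composition. Vehicle and inhibitor libraries differed in the genes with any count, 25201 to 25841 and 23279 to 23335, and the 10 most abundant genes took 6.10% to 6.62% and 7.50% to 8.26% of counts. TMM factors were 1.06 to 1.11 in vehicle and 0.916 to 0.943 in inhibitor libraries. The groups lay apart on the first principal component, which held 64.9% of the variance. The second held 16.9%. There inhibitor replicate 1 had a score of -64.5, against 31.8 and 29.4 for the rest of its group. Vehicle replicate 2 scored -16.0, against 5.56 and 13.8. These 2 libraries stand apart from their groups, and counts below are given without them where that changes the picture. Of 12 markers of Ewing sarcoma all 12 were tested, and their summed level was 6576 to 8342 CPM in vehicle and 5022 to 6396 in inhibitor libraries. Endothelial markers summed to 3.68 to 5.01 and 2.39 to 3.35 CPM with TEK at 0, and epithelial markers to 6.17 to 8.72 and 3.68 to 4.54 CPM. Leukocyte markers summed to 7.62 to 8.97 CPM in vehicle and 11.7 to 15.5 in inhibitor libraries, with the lymphocyte genes CD3E, CD3D and MS4A1 at 0 in all 6. Fibroblast markers, many of which these cells express themselves, summed to 888 to 971 and 838 to 890 CPM, with TCF21 at 0. The part of these differences in the results was not tested.

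A large part of the transcriptome differed between the groups. Of 16890 genes tested with the quasi-likelihood F test of edgeR at an adjusted p under 0.05, 4128 (24.4%) rose and 4027 (23.8%) fell in inhibitor cells, 8155 or 48.3% in all. Changes of at least 2-fold were more often falls, with 1419 genes up and 2268 down, and 258 and 665 genes changed at least 4-fold. The libraries of the groups did not overlap for 59.8% of genes. These shares are the background against which the counts below are read, and in bulk RNA fewer cells of a kind and less RNA per cell cannot be told apart. Some lists described below had a smaller share of calls than the 48.3% of all genes. Among them were integrins (31.2%), oxidative phosphorylation (35.6%), factors that restrain vessels (36.4%) and collagens (36.7%). So were interferon-induced genes (38.6%), matrix crosslinkers and proteases (39.1%), proteoglycans (40.9%) and mesenchymal transition factors (42.9%). With library totals alone in place of TMM the median log2 fold change of all genes moved from -0.02 to -0.24, and 2845 genes rose and 5515 fell, so that 34.0% of calls were rises in place of 50.6%. On log2(TPM + 1) values 2510 rose and 5207 fell. Without vehicle replicate 2 and inhibitor replicate 1 together 5369 genes rose and 5338 fell. A gene whose change is small therefore has a direction that rests on the scaling, and gene groups where this matters are marked. The plot of all genes shows the changes by level.

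**Figure D1:**
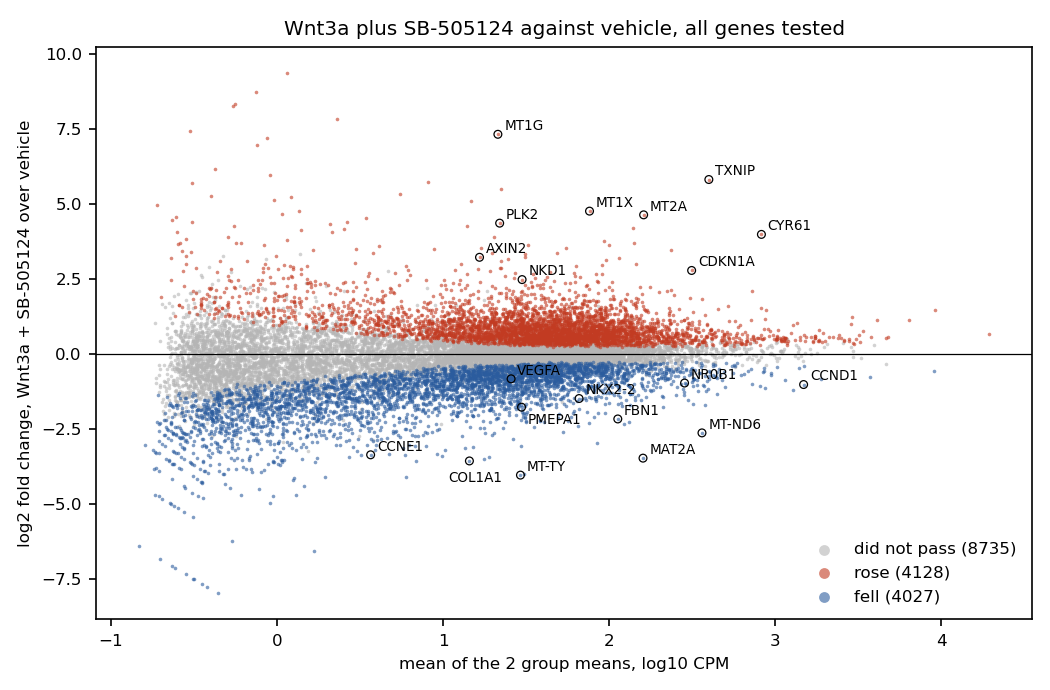
Log2 fold change of inhibitor over vehicle cells (vertical axis) against mean level in log10 CPM (horizontal axis) for the 16890 genes tested, with 4128 that rose in red, 4027 that fell in blue and the rest in grey. TXNIP lies at 5.82, MT2A at 4.64, MAT2A at -3.47 and MT-ND6 at -2.63.

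Metallothionein genes and TXNIP rose steeply. Metallothioneins are small cysteine-rich proteins that bind zinc and copper, and their genes are switched on by the metal sensor MTF1. MT2A had 11.7, 11.4 and 14.2 CPM in the vehicle libraries and 249.6, 298 and 384 in the inhibitor libraries (log2 fold change 4.64, SE 0.194, edgeR adjusted p = 1.43e-05). MT1X had 4.80, 6.07 and 5.34 CPM in the vehicle libraries and 136, 121 and 184 in the inhibitor libraries (log2 fold change 4.76, SE 0.196, edgeR adjusted p = 1.43e-05). Every inhibitor library lay far above every vehicle library for MT2A and MT1X, and the scatter within groups was small beside that gap. MT1G, MT1F and MT1E rose from 0.267, 0.9501 and 0.834 to 42.5, 43.5 and 28.6 CPM on average, and inhibitor replicate 1 was the lowest inhibitor library for each. MT1H and MT1M had 0 counts in vehicle and 147 and 105 in inhibitor libraries, at least 62.1-fold and 44.4-fold higher with the vehicle group set at 3 counts (counting error only; edgeR adjusted p = 0.00179 and 0.00126). Genes of this cluster are near-identical copies, so how counts divide among them is uncertain. SLC30A1, the zinc exporter of the cell surface, rose with them, from 25.6, 13.6 and 22.3 to 114, 172 and 199 CPM (log2 fold change 2.98, SE 0.283, edgeR adjusted p = 0.000172). MTF1 itself rose less, from 17.4 ± 2.13 to 37.6 ± 5.46 CPM (mean ± SD, n = 3 each; log2 fold change 1.11, SE 0.151, edgeR adjusted p = 0.000783). Of 26 metallothionein and zinc transporter genes tested of 31 listed, 11 rose and 5 fell, the falls being the transporters SLC39A3, SLC39A11, SLC39A14, SLC30A6 and SLC39A7, and 3 genes fell without vehicle replicate 1 or 3. Genes at 0 in vehicle libraries, such as MT1H and MT1M, passed the filter only through their inhibitor counts and could only be called as rises. With every gene of at least 1 count kept, 12 of 31 rose and 6 fell. With a minimum count of 50, 9 of 24 rose and 6 fell. SLC30A6 did not pass without vehicle replicate 1 or 3 or inhibitor replicate 2 or 3 (edgeR adjusted p = 0.0706 to 0.0774), and SLC39A11 without vehicle replicate 1 or 3 (edgeR adjusted p = 0.05 to 0.0653).

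In hg38, MT2A (ENSG00000125148.6) spans chromosome 16, 56608199 to 56609497, and MT1X (ENSG00000187193.8) chromosome 16, 56682424 to 56684196, and each count sums the exons of the gene's transcripts. Their promoters are shown because the metal response element that MTF1 binds recurs in them. The letters searched were TGCACNC and TGCGCNC on both strands, where matches may overlap, in the 250 bases before the start of transcription in RefSeq on GRCh38.p14, and capitals mark the matches. The MT2A stretch is chr16:56608334-56608583, plus strand, with 7 matches, and the MT1X stretch chr16:56682220-56682469, plus strand, with 4.
MT2A promoter: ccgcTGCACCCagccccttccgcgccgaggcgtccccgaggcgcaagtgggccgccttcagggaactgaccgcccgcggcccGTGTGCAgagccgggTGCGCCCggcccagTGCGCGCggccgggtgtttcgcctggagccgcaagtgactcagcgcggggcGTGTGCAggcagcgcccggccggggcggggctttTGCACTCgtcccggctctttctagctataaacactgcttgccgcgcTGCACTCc
MT1X promoter: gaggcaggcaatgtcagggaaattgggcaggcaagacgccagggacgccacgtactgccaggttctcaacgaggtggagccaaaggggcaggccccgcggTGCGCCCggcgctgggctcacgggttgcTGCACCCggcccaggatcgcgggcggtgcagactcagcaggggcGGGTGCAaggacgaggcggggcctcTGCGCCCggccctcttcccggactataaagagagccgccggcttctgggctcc
All 4 of the 4 promoters of MT1 genes and MT2A in the table held the motif, against 24.8% of 35116 promoters of the same length. Over the whole list of metallothionein and zinc transporter genes it was in 5 of 8 promoters of those that rose, 6 of 15 of those that did not pass and 2 of 4 of those that fell. A match describes letters, not a site in use.

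TXNIP, an arrestin-domain protein that inhibits thioredoxin and glucose import, had 13.9, 13.4 and 14.4 CPM in the vehicle libraries and 949, 749 and 654 in the inhibitor libraries (log2 fold change 5.82, SE 0.173, edgeR adjusted p = 9.64e-06), a ratio of group means of 56.4. Its mean TPM, which is per length, was 8.07 ± 1.36 in vehicle and 363 ± 46.0 in inhibitor libraries (SD, n = 3 per group). ARRDC4, a related arrestin-domain gene, had 2.36, 2.51 and 2.81 CPM in the vehicle libraries and 31.1, 45.1 and 37.6 in the inhibitor libraries (log2 fold change 3.89, SE 0.184, edgeR adjusted p = 2.03e-05). Both genes were flat among vehicle libraries and far higher in every inhibitor library. ARRDC3, another relative, rose from 33.4 ± 1.67 to 114 ± 27.9 CPM (mean ± SD, n = 3 each; log2 fold change 1.77, SE 0.177, edgeR adjusted p = 0.000212), and the neuronal-type glucose transporter SLC2A3 from 3.62, 3.52 and 4.96 to 29.7, 29.7 and 26.4 CPM (log2 fold change 2.82, SE 0.175, edgeR adjusted p = 5.05e-05). The common glucose transporter SLC2A1 stood at a log2 fold change of -0.42 (adjusted p in edgeR = 0.0501) and passed without vehicle replicate 2 (0.0128), while SLC2A6, a lysosomal transporter, fell from 5.62, 8.44 and 6.06 to 0.478, 0.873 and 1.298 CPM (log2 fold change -2.91, SE 0.372, edgeR adjusted p = 0.000594). Of 20 genes tested of this group of 23 listed, 8 rose and 4 fell, the falls being ARRDC1, ARRDC2, MLXIP and SLC2A6. The promoters of TXNIP and ARRDC4 are shown because both are known to be driven by MondoA and ChREBP through paired CACGNG letters. TXNIP (ENSG00000265972.5) spans chromosome 1, 145992435 to 145996600 of hg38, and the 250 bases before its start are chr1:145996580-145996829, minus strand of GRCh38.p14 in RefSeq, with 4 matches on either strand in capitals. This RefSeq start also lies inside the gene span, so the TXNIP stretch overlaps it. The stretch of ARRDC4 is chr15:97960453-97960702, plus strand, with 3 matches that may overlap.
TXNIP promoter: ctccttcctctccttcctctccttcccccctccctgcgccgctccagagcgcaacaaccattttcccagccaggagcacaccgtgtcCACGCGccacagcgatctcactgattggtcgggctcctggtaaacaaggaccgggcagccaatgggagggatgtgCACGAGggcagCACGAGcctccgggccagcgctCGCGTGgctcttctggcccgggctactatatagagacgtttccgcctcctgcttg
ARRDC4 promoter: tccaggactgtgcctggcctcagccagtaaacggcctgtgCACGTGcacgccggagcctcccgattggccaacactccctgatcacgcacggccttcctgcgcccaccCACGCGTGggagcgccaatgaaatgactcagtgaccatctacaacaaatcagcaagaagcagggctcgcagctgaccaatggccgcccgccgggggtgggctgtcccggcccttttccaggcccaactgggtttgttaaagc
The same letters occurred in 26.7% of all promoters of this length, in 6 of the 10 promoters of the genes of this group that rose, in 4 of 10 of those that did not pass and in 2 of 5 of those that fell.

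Several Wnt target and feedback genes rose, among them AXIN2 and NKD1. AXIN2, the most general Wnt target, whose protein helps to destroy β-catenin, had 3.07, 2.95 and 3.58 CPM in the vehicle libraries and 27.1, 34.2 and 28.7 in the inhibitor libraries (log2 fold change 3.23, SE 0.161, edgeR adjusted p = 2.41e-05). NKD1, which dampens Dishevelled, had 7.19, 13.04 and 6.99 CPM in the vehicle libraries and 52.4, 48.6 and 51.4 in the inhibitor libraries (log2 fold change 2.48, SE 0.243, edgeR adjusted p = 0.000194). For both the groups were far apart, and among vehicle libraries replicate 2 was the highest for NKD1. TCF7, a β-catenin partner that binds DNA, had 3.81, 2.53 and 4.11 CPM in the vehicle libraries and 11.1, 18.3 and 22.1 in the inhibitor libraries (log2 fold change 2.302, SE 0.297, edgeR adjusted p = 0.00062). FZD7, a Frizzled receptor, had 9.901, 12.8 and 12.5 CPM in the vehicle libraries and 31.9, 25.9 and 28.8 in the inhibitor libraries (log2 fold change 1.300, SE 0.151, edgeR adjusted p = 0.000389). WIF1, which captures Wnt ligands outside the cell, had 2.39, 2.11 and 1.503 CPM in the vehicle libraries and 9.49, 5.36 and 5.16 in the inhibitor libraries (log2 fold change 1.73, SE 0.318, edgeR adjusted p = 0.00296), and the zinc finger gene TSHZ1 5.38, 5.25 and 5.56 CPM in the vehicle libraries and 39.5, 38.7 and 39.4 in the inhibitor libraries (log2 fold change 2.86, SE 0.115, edgeR adjusted p = 1.43e-05). WIF1 and TSHZ1 entered the list because earlier results of these data named them. DKK1, a secreted blocker of the LRP co-receptors, rose from 15.9, 3.75 and 18.5 to 161, 184 and 177 CPM (log2 fold change 3.77, SE 0.501, edgeR adjusted p = 0.000696), with vehicle replicate 2 well below the other vehicle libraries. FOXQ1, a forkhead factor also taken from earlier results, had 438 counts in inhibitor and 2 in vehicle libraries, a ratio of 278 (exact 95% interval 76.4 to 2300, counting error only; edgeR adjusted p = 7.44e-05). LEF1, with 14 and 2 counts, was too low to test.

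Other Wnt targets fell or did not pass the test. Of 29 tested of 41 listed, 15 rose and 5 fell (14 and 6 with library totals), with a median log2 fold change of 0.52. Without WIF1, TSHZ1 and FOXQ1, the 3 taken from earlier results, 12 of 26 rose and 5 fell, with a median of 0.39, a count added after seeing the data. The falls were LGR5 and LGR6, receptors for R-spondin, the ubiquitin ligase ZNRF3, the surface inhibitor APCDD1 and cyclin D1. LGR5 had 15.9, 21.7 and 16.4 CPM in the vehicle libraries and 11.7, 7.34 and 7.01 in the inhibitor libraries (log2 fold change -1.06, SE 0.232, edgeR adjusted p = 0.00679). ZNRF3 had 15.7, 14.05 and 18.9 CPM in the vehicle libraries and 8.57, 10.2 and 10.5 in the inhibitor libraries (log2 fold change -0.73, SE 0.165, edgeR adjusted p = 0.0076). In both genes every inhibitor library lay below every vehicle library. APCDD1 did not pass without vehicle replicate 1 or 3 or inhibitor replicate 1 or 2 (edgeR adjusted p = 0.0545 to 0.125), and LGR6 without vehicle replicate 2 (edgeR adjusted p = 0.0508). MYC, often listed as a Wnt target, had 318, 274 and 330.2 CPM in the vehicle libraries and 335, 281 and 318 in the inhibitor libraries (log2 fold change 0.02, SE 0.113, edgeR adjusted p = 0.899), and the groups overlapped. Among 48 ligands, receptors and transducers tested of 57 listed, 13 rose and 12 fell, a balance that turned to 5 and 15 with library totals and to 3 and 13 on TPM. The share called in this list, 52.1%, was near the 48.3% of all genes tested. The number that rose was 7 without vehicle replicate 1 and 8 without inhibitor replicate 2, and the number that fell 6 without vehicle replicate 3. The ligand transporter WLS rose from 86.9 ± 4.34 to 149.9 ± 11.4 CPM (mean ± SD, n = 3 each; log2 fold change 0.79, SE 0.1, edgeR adjusted p = 0.000578). FZD4, another Frizzled, fell from 137, 120.1 and 154 to 52.2, 26.7 and 26.1 CPM (log2 fold change -1.97, SE 0.269, edgeR adjusted p = 0.000787). The co-receptor LRP5 fell from 75.9, 86.4 and 83.2 to 35.98, 41.97 and 45.1 (log2 fold change -0.997, SE 0.116, edgeR adjusted p = 0.000397). PYGO2, a partner of the β-catenin complex, fell from 96.5, 109 and 98.6 to 34.2, 32.98 and 40.4 (log2 fold change -1.498, SE 0.115, edgeR adjusted p = 7.9e-05). The ligand WNT5A fell from 70.9 ± 9.92 to 34.1 ± 2.67 CPM (mean ± SD, n = 3 each; log2 fold change -1.06, SE 0.131, edgeR adjusted p = 0.000523).

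**Figure D2:**
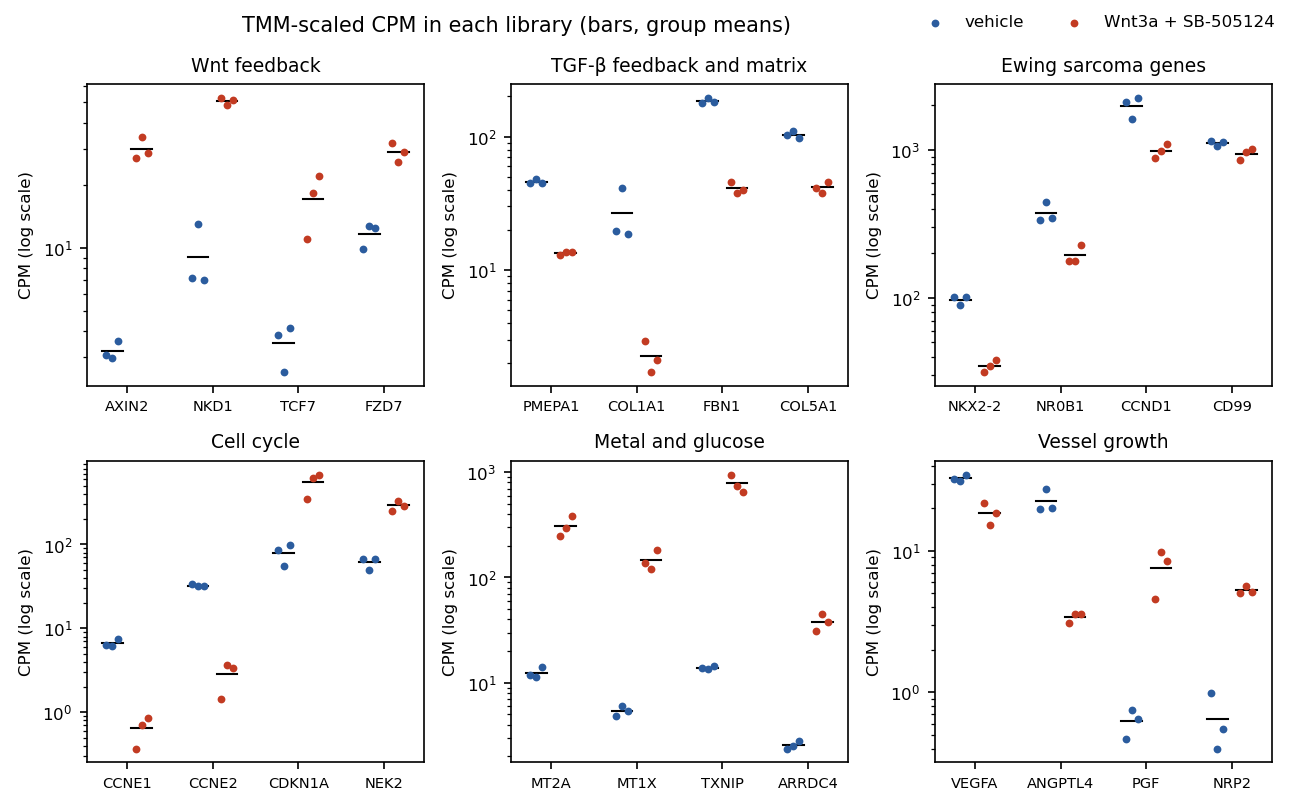
CPM on a log axis in each of the 3 vehicle (blue) and 3 inhibitor (red) libraries for 24 genes in 6 groups, with bars at the group means. Of the genes shown, CD99 is the only one that did not pass the test (edgeR adjusted p = 0.0775).

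Among feedback genes of TGF-β, PMEPA1 fell, while SMAD7 and SKIL did not pass the test. PMEPA1, which sequesters SMADs, had 44.8, 48.5 and 44.6 CPM in the vehicle libraries and 12.95, 13.8 and 13.7 in the inhibitor libraries (log2 fold change -1.77, SE 0.107, edgeR adjusted p = 5.05e-05), a tight fall in all 3 libraries. SMAD7, the inhibitory SMAD, had 12.2, 13.6 and 13.4 CPM in the vehicle libraries and 11.3, 15.1 and 16.7 in the inhibitor libraries (log2 fold change 0.14, SE 0.172, edgeR adjusted p = 0.52). SKIL, a repressor of SMAD targets, had 24.8, 17.5 and 23.1 CPM in the vehicle libraries and 23.9, 22.6 and 21.7 in the inhibitor libraries (log2 fold change 0.06, SE 0.153, edgeR adjusted p = 0.765), with groups that overlapped for both. SMAD7 passed as higher without vehicle replicate 2 and inhibitor replicate 1 (edgeR adjusted p = 0.0277). Of 54 genes commonly induced by TGF-β that were tested, of 60 listed, 12 rose and 15 fell, with a median of -0.05. The share called in this list, 50%, was near the 48.3% of all genes tested. Those that rose included the matricellular genes CYR61 (log2 fold change 3.99) and CTGF (1.87) and the transition factors SNAI2 (2.29) and ZEB1 (1.72), and those that fell COL1A1, COL1A2, LOXL2 (-2.76), ANGPTL4 and ADAM19 (-1.201). TGFBI, a secreted adhesion protein, had 90.97, 58.5 and 81.7 CPM in the vehicle libraries and 95.04, 106 and 102 in the inhibitor libraries (log2 fold change 0.39, SE 0.161, edgeR adjusted p = 0.0753), with no overlap, and it passed without vehicle replicate 1 (edgeR adjusted p = 0.0434).

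Some genes of the pathway's own ligands and receptors also changed. TGFB2, a TGF-β ligand, had 82.7, 74.1 and 74.6 CPM in the vehicle libraries and 326, 319.9 and 321 in the inhibitor libraries (log2 fold change 2.06, SE 0.0941, edgeR adjusted p = 1.62e-05). ITGB8, part of an integrin able to release TGF-β from its latent form, had 11.8, 9.38 and 12.6 CPM in the vehicle libraries and 62.5, 39.9 and 42.8 in the inhibitor libraries (log2 fold change 2.11, SE 0.204, edgeR adjusted p = 0.000189). The inhibitor libraries were nearly equal for TGFB2, and replicate 1 was the highest for ITGB8. SMAD2 and SMAD4, the transducers, rose with log2 fold changes of 0.72 and 0.84 (edgeR adjusted p = 0.00117 and 0.000285). LEFTY2, a secreted antagonist of NODAL and a target of activin-type signals, fell from 3.35, 2.204 and 3.41 to 0.221, 0.728 and 0.371 CPM (log2 fold change -2.73, SE 0.452, edgeR adjusted p = 0.00184). FST, the activin trap follistatin, fell from 4.03, 3.42 and 4.11 to 1.88, 1.34 and 1.79 (log2 fold change -1.21, SE 0.249, edgeR adjusted p = 0.00508). GDF15, a stress cytokine of the family, rose from 1.65, 0.328 and 2.23 to 5.67, 36.8 and 37.3 CPM (log2 fold change 4.25, SE 0.825, edgeR adjusted p = 0.00384), with inhibitor replicate 1 far below the other inhibitor libraries. Of 28 tested of 37 listed, 9 rose and 7 fell, against 7 and 9 with library totals. Calls made up 57.1% of these genes and 48% of the BMP genes that follow, against 48.3% of all genes tested. On the BMP side, which SB-505124 is not known to block, 7 of 25 tested of 32 listed rose and 5 fell (5 and 7 with library totals), the falls being SMAD5, BMP6, MSX1, DLX1 and GREM1, and the ID genes that report BMP signals, ID1 and ID3, had log2 fold changes of 0.17 and -0.27 (edgeR adjusted p = 0.654 and 0.227). ID1 passed as higher without inhibitor replicate 1 (edgeR adjusted p = 0.00412). The BMP antagonist GREM1 fell from 25.9, 9.61 and 22.05 to 2.32, 5.44 and 6.15 CPM (log2 fold change -2.04, SE 0.443, edgeR adjusted p = 0.00643). The receptor-regulated SMAD9 rose from 64.3 ± 7.86 to 185 ± 11.2 CPM (mean ± SD, n = 3 each; log2 fold change 1.53, SE 0.119, edgeR adjusted p = 8.26e-05).

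More collagen and matrix glycoprotein genes fell than rose, while proteoglycan genes did not share a direction. COL1A1, which encodes a chain of collagen type I (ENSG00000108821.13; chromosome 17, 50183289 to 50201632 of hg38), had 19.7, 41.3 and 18.7 CPM in the vehicle libraries and 2.94, 1.72 and 2.13 in the inhibitor libraries (log2 fold change -3.56, SE 0.372, edgeR adjusted p = 0.000255), and its partner COL1A2 8.86, 16.5 and 8.49 CPM in the vehicle libraries and 2.58, 1.37 and 1.27 in the inhibitor libraries (log2 fold change -2.71, SE 0.379, edgeR adjusted p = 0.000862). Vehicle replicate 2 was the highest library for both, and the groups stayed apart. COL5A1, another fibrillar chain, had 103, 109 and 97.95 CPM in the vehicle libraries and 41.2, 38.1 and 45.98 in the inhibitor libraries (log2 fold change -1.31, SE 0.108, edgeR adjusted p = 0.000105). COL3A1 stood at a log2 fold change of 0.13 (adjusted p in edgeR = 0.633), with overlap. COL4A3, a basement membrane chain, had 42 counts in vehicle and 3 in inhibitor libraries, a ratio of 11.04 (exact 95% interval 3.53 to 55.7, counting error only), and did not pass without vehicle replicate 2 or 3 or inhibitor replicate 2 or 3 (edgeR adjusted p = 0.0531 to 0.0715). Of 30 collagen genes tested of 42 listed, 10 fell and 1, COL11A1, rose (12 and 0 with library totals), with a median of -0.47. The number that fell was 6 without vehicle replicate 2 or inhibitor replicate 2, 5 without inhibitor replicate 3, and 13, with 3 rises, without vehicle replicate 2 and inhibitor replicate 1 together. COL11A1 did not pass without vehicle replicate 1 or 3 or any inhibitor replicate (edgeR adjusted p = 0.0776 to 0.143).

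Of 59 matrix glycoproteins tested of 76 listed, 23 fell and 8 rose (26 and 6 with library totals, 27 and 15 without both libraries that stand apart). FBN1, the fibrillin of elastic microfibrils, had 178, 194 and 181 CPM in the vehicle libraries and 45.6, 38.1 and 39.95 in the inhibitor libraries (log2 fold change -2.16, SE 0.108, edgeR adjusted p = 2.41e-05). FBLN5, a fibulin of elastic fibres, had 9.41, 10.8 and 8.72 CPM in the vehicle libraries and 1.95, 2.53 and 2.32 in the inhibitor libraries (log2 fold change -2.08, SE 0.199, edgeR adjusted p = 0.000175). AGRN, the basement membrane protein agrin, had 79.2, 117 and 93.5 CPM in the vehicle libraries and 15.4, 26.8 and 32.4 in the inhibitor libraries (log2 fold change -1.95, SE 0.267, edgeR adjusted p = 0.000785). These falls were seen in every inhibitor library. TNC, tenascin C, had 605, 357 and 693 CPM in the vehicle libraries and 251, 357 and 369.8 in the inhibitor libraries (log2 fold change -0.76, SE 0.249, edgeR adjusted p = 0.0352). Vehicle replicate 2 lay at the level of inhibitor replicates 2 and 3, and TNC did not pass without vehicle replicate 1 or 3 or any inhibitor replicate (edgeR adjusted p = 0.0529 to 0.125). Fibronectin, FN1, had 1592, 1425 and 1919.9 CPM in the vehicle libraries and 1256, 1977 and 1659 in the inhibitor libraries (log2 fold change -0.01, SE 0.179, edgeR adjusted p = 0.958), with overlap. MATN3, a cartilage matrilin, rose from 1.21, 0.7503 and 1.68 to 8.65, 6.69 and 5.07 CPM (log2 fold change 2.49, SE 0.351, edgeR adjusted p = 0.000903). Among enzymes and integrins, MMP14, a membrane-bound protease, rose from 169 ± 4.48 to 342 ± 11.7 CPM (mean ± SD; log2 fold change 1.02, SE 0.087, edgeR adjusted p = 0.000119), LOXL2, a collagen crosslinker, fell from 3.62, 5.35 and 3.53 to 0.957, 0.524 and 0.371 CPM (log2 fold change -2.76, SE 0.397, edgeR adjusted p = 0.000979), and the integrin subunits ITGA5 and ITGB5 fell with log2 fold changes of -0.77 and -1.06 (edgeR adjusted p = 0.00158 and 0.000346). Of 16 integrin genes tested of 21 listed 4 fell and 1 rose, with 2 falls without vehicle replicate 1 or inhibitor replicate 2 or 3 and 8 without both libraries that stand apart. In all 7 of 46 tested of 62 listed crosslinkers, proteases and inhibitors rose and 11 fell, against 4 and 16 with library totals. Calls made up 31.2% of the integrin and 39.1% of these enzyme and inhibitor genes, against 48.3% of all genes tested. Of 22 proteoglycan genes tested of 32 listed 5 rose and 4 fell, with a median of -0.11 (4 and 7 with library totals, and 8 and 4 with a median of 0.13 without both libraries that stand apart). The small proteoglycan LUM, lumican, rose from 15.2, 13.9 and 14.3 to 33.8, 34.8 and 32.7 CPM (log2 fold change 1.22, SE 0.11, edgeR adjusted p = 0.000138). CSPG5, a brain-type chondroitin sulphate proteoglycan, fell from 25.9, 22.4 and 23.98 to 5.85, 5.88 and 5.78 (log2 fold change -2.04, SE 0.13, edgeR adjusted p = 5.24e-05).

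Several genes that mark Ewing sarcoma fell. NKX2-2, a homeobox factor that the fusion protein needs for transformation, had 101, 89.2 and 101 CPM in the vehicle libraries and 31.4, 34.8 and 38.2 in the inhibitor libraries (log2 fold change -1.48, SE 0.113, edgeR adjusted p = 7.86e-05). NR0B1, an orphan nuclear receptor activated by the fusion, had 336, 447 and 348 CPM in the vehicle libraries and 177, 177 and 226 in the inhibitor libraries (log2 fold change -0.96, SE 0.151, edgeR adjusted p = 0.00142). CCND1, cyclin D1, had 2114, 1609.8 and 2232 CPM in the vehicle libraries and 883, 978 and 1086 in the inhibitor libraries (log2 fold change -1.01, SE 0.144, edgeR adjusted p = 0.000937). In all of these the highest inhibitor library lay below the lowest vehicle library. Of 12 Ewing markers 7 fell and 0 rose, also with LIPI (-0.76), STEAP1 (-0.67), NPY1R (-0.83) and EWSR1 (-0.57), and 9 and 0 with library totals. It was 8 and 1 without both libraries that stand apart. CD99, the diagnostic surface protein, stood at a log2 fold change of -0.24 (adjusted p in edgeR = 0.0775), and FLI1, counted over the fusion and the intact gene together, of 0.205 (edgeR adjusted p = 0.178). Without vehicle replicate 2 and inhibitor replicate 1 together, CD99 passed as lower (edgeR adjusted p = 0.00969) and FLI1 as higher (0.0462). Of 51 genes tested of 54 reported as activated by EWSR1-FLI1, 21 fell and 6 rose (24 and 1 with library totals), with a median of -0.28. BRCA1, a repair gene in that list, had 54.1, 64.5 and 58.6 CPM in the vehicle libraries and 15.5, 21.2 and 17.3 in the inhibitor libraries (log2 fold change -1.71, SE 0.145, edgeR adjusted p = 0.000113). XAGE1B, a cancer-testis antigen of a family of close copies whose counts are uncertain, fell from 225, 228 and 221 to 99.97, 125 and 126 CPM (log2 fold change -0.94, SE 0.113, edgeR adjusted p = 0.000452). The number that rose was 3 without vehicle replicate 1 or 3 or inhibitor replicate 2 or 3, while 14 rose and 27 fell without both libraries that stand apart. Of 44 genes tested of 48 reported as repressed, 21 rose and 8 fell (16 and 11 with library totals, 24 and 14 without both libraries that stand apart). The rises include CXCL8, described below, which passed the filter only through its inhibitor counts. With every gene of at least 1 count kept, 21 of 47 rose and 10 fell. Many of those that rose, such as CYR61, FOS, EGR1 and CDKN1A, also belong to groups described below, and those that fell included COL1A1, COL1A2 and TNC.

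The cell cycle genes parted by phase. Many genes of the start of S phase fell. CCNE1, cyclin E1, which starts S phase with CDK2, had 6.42, 6.24 and 7.42 CPM in the vehicle libraries and 0.368, 0.699 and 0.865 in the inhibitor libraries (log2 fold change -3.36, SE 0.324, edgeR adjusted p = 0.000187), and its relative CCNE2 33.6, 31.7 and 31.9 CPM in the vehicle libraries and 1.43, 3.697 and 3.399 in the inhibitor libraries (log2 fold change -3.495, SE 0.305, edgeR adjusted p = 0.000127). For both cyclins every inhibitor library lay far below every vehicle library. FEN1, a flap nuclease of lagging strand synthesis, had 120.4, 141 and 131 CPM in the vehicle libraries and 22.3, 34.2 and 34.3 in the inhibitor libraries (log2 fold change -2.11, SE 0.176, edgeR adjusted p = 0.000106). MCM6, a subunit of the replicative helicase, had 216, 209 and 216 CPM in the vehicle libraries and 59.02, 103 and 87.7 in the inhibitor libraries (log2 fold change -1.36, SE 0.186, edgeR adjusted p = 0.000784). For both, inhibitor replicate 1 was the lowest library. UHRF1, which maintains DNA methylation, fell from 151 ± 5.86 to 38.6 ± 11.9 CPM (mean ± SD, n = 3 each; log2 fold change -1.97, SE 0.22, edgeR adjusted p = 0.000331). In all 28 of 51 S phase genes, all tested, fell and 4 rose, PRIM2, CDT1, ORC1 and RRM1, with a median of -0.62 and 32 falls and 2 rises with library totals, and 2 rises also without vehicle replicate 1. Without both libraries that stand apart 30 fell and 9 rose. ORC1 did not pass without vehicle replicate 1 (edgeR adjusted p = 0.055), and RRM1 without any vehicle replicate or inhibitor replicate 2 or 3 (edgeR adjusted p = 0.0525 to 0.071). Many genes of G2 and mitosis rose. NEK2, a kinase of centrosome separation, had 67.3, 49.6 and 66.9 CPM in the vehicle libraries and 253, 332 and 288 in the inhibitor libraries (log2 fold change 2.25, SE 0.159, edgeR adjusted p = 6.62e-05). PLK1, the mitotic polo-like kinase, had 149, 150.1 and 165 CPM in the vehicle libraries and 248, 369 and 390.2 in the inhibitor libraries (log2 fold change 1.12, SE 0.169, edgeR adjusted p = 0.00122). CDK1, the mitotic kinase, rose from 159 ± 4.90 to 295 ± 41.6 CPM (mean ± SD, n = 3 each; log2 fold change 0.89, SE 0.118, edgeR adjusted p = 0.000712). In all 30 of 53, all tested, rose and 3 fell, GTSE1, SPC25 and BUB1B, with a median of 0.43 (24 and 5 with library totals, 38 and 7 without vehicle replicate 2 and inhibitor replicate 1 together). Without vehicle replicate 2 alone 5 fell. GTSE1 did not pass without vehicle replicate 3 (edgeR adjusted p = 0.0602), and SPC25 without vehicle replicate 1 or 3 (edgeR adjusted p = 0.051 to 0.059).

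The promoters of MCM6 and PLK1 are shown as examples of these classes, since S phase genes are known for E2F sites and mitotic genes for the CHR element. The letters searched on both strands were TTTCCCGC, TTTCGCGC, TTTGCCGC and TTTGGCGC for E2F and TTTGAA for the CHR, where matches may overlap, in 250 bases before the start in RefSeq on GRCh38.p14, with matches in capitals. The MCM6 stretch is chr2:135876444-135876693, minus strand, with 4 overlapping E2F matches, and the PLK1 stretch chr16:23678639-23678888, plus strand, with 1 CHR match.
MCM6 promoter: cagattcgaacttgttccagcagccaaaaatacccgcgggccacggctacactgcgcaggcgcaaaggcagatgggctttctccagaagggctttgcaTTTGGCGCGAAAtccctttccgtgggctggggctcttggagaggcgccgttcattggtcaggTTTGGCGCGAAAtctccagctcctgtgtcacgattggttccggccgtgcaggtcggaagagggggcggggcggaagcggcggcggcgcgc
PLK1 promoter: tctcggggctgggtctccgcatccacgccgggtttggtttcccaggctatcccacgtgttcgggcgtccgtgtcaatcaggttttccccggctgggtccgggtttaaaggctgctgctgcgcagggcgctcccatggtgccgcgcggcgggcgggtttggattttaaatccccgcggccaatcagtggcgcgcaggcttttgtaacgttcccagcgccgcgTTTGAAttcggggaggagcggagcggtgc
E2F letters occurred in 12 of 26 promoters of the S phase genes that fell, in 6 of 27 of those that did not pass, in 1 of 5 of those that rose and in 2.79% of all promoters. The CHR letters occurred in 17 of 30 promoters of the G2 and mitosis genes that rose, in 9 of 23 of those that did not pass, in 3 of 3 of those that fell and in 13.3% of all promoters. Some genes have more than 1 promoter in the table.

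**Figure D3:**
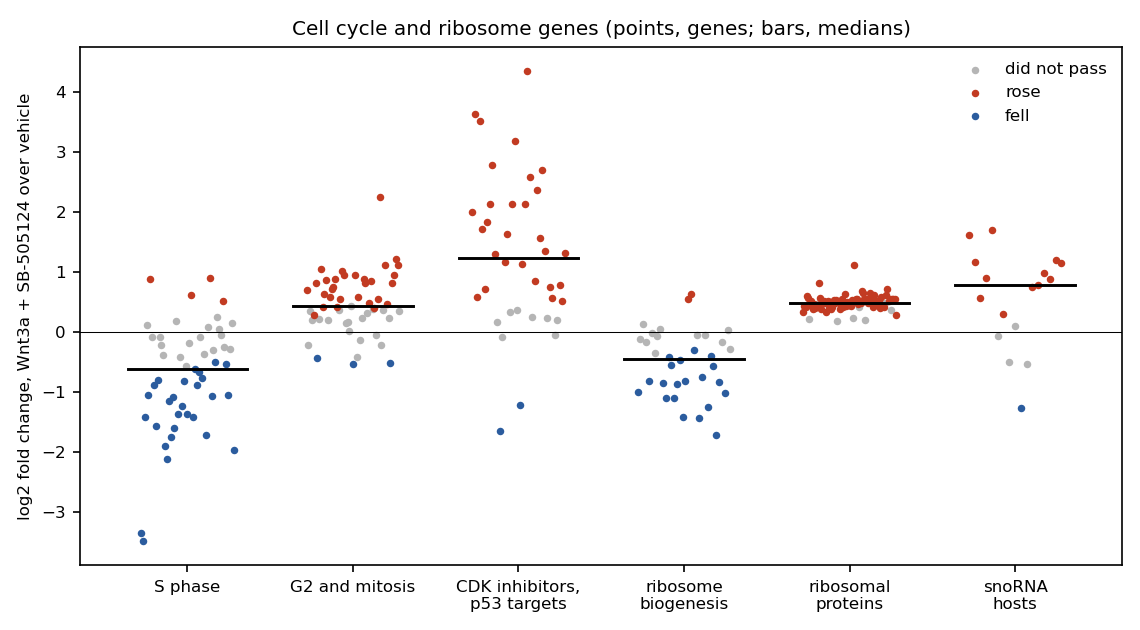
Log2 fold change of inhibitor over vehicle cells for each tested gene (points) of 6 groups, with the median of each group as a bar, red for genes that rose, blue for those that fell and grey for those that did not pass. S phase genes and ribosome biogenesis genes lie mostly below 0 and G2 and mitosis genes, CDK inhibitors and p53 targets, ribosomal protein genes and snoRNA hosts mostly above it; with library totals 17 of the 77 ribosomal protein genes passed in place of 69.

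Most CDK inhibitors and p53 targets tested rose. CDKN1A, the CDK inhibitor p21, had 86.7, 54.7 and 97.2 CPM in the vehicle libraries and 349, 619 and 678 in the inhibitor libraries (log2 fold change 2.79, SE 0.298, edgeR adjusted p = 0.00028), with inhibitor replicate 1 the lowest of its group and still above all vehicle libraries. PLK2, a polo-like kinase induced by p53, had 2.72, 1.06 and 2.35 CPM in the vehicle libraries and 38.4, 48.03 and 39.1 in the inhibitor libraries (log2 fold change 4.36, SE 0.32, edgeR adjusted p = 7.15e-05). BBC3, the cell death protein PUMA, had 8.72, 10.2 and 7.72 CPM in the vehicle libraries and 65.1, 124 and 117 in the inhibitor libraries (log2 fold change 3.52, SE 0.258, edgeR adjusted p = 7.15e-05). SESN1, a sestrin that restrains growth signals, rose from 16.7, 17.4 and 15.3 to 85.3, 127 and 109 CPM (log2 fold change 2.702, SE 0.16, edgeR adjusted p = 4.45e-05). AEN, a nuclease induced by p53, rose from 63.4, 58.8 and 68.02 to 248, 257 and 255 (log2 fold change 1.999, SE 0.0975, edgeR adjusted p = 2.27e-05). MDM2, the ligase that limits p53, rose from 80.4 ± 10.6 to 177 ± 28.3 CPM (mean ± SD, n = 3 each; log2 fold change 1.13, SE 0.153, edgeR adjusted p = 0.000739), and CDKN1B, the inhibitor p27, from 47.3 ± 2.49 to 117 ± 9.56 CPM (mean ± SD; log2 fold change 1.31, SE 0.103, edgeR adjusted p = 8.53e-05). In all 28 of 38 tested of 40 listed rose and 2 fell, with a median of 1.24 (26 and 3 with library totals). The falls were CDKN2A, the p16 and ARF gene, and GADD45G. In the BCL2 family, 6 of 15 tested of 20 listed rose, among them BCL2L2, a survival protein (1.16), and 4 fell, BCL2L11 (-1.08), BMF (-1.07), BID and BOK.

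Genes of the ribosome itself and of its assembly moved apart under TMM scaling. Cytosolic ribosomal protein genes had narrow shifts above 0, all 77 tested, of which 69 rose and 0 fell, with a median of 0.49. This count rests on the scaling, since 17 rose with library totals (median 0.28) and 4 on TPM. It was 43 without vehicle replicate 3, where calls over all genes also dropped, from 8155 to 6411. Without both libraries that stand apart it was 77. RPS12 had 943, 961 and 956 CPM in the vehicle libraries and 1749.5, 1432 and 1425 in the inhibitor libraries (log2 fold change 0.69, SE 0.108, edgeR adjusted p = 0.00142). RPL11 had 906, 733 and 816 CPM in the vehicle libraries and 1292, 1263 and 1189 in the inhibitor libraries (log2 fold change 0.61, SE 0.106, edgeR adjusted p = 0.00229). Reads of these genes can be shared with their many processed pseudogenes. Hosts of small nucleolar RNAs, which like ribosomal protein genes are known for a start that mTOR regulates, rose in 12 of 17 and fell in 1, SNHG20 (10 and 3 with library totals, and 4 falls without inhibitor replicate 1 or without both libraries that stand apart). ZFAS1 had 165, 186 and 177 CPM in the vehicle libraries and 495, 335 and 340.4 in the inhibitor libraries (log2 fold change 1.15, SE 0.161, edgeR adjusted p = 0.000883). SNHG12 had 12.9, 18.8 and 12.6 CPM in the vehicle libraries and 62.0, 42.7 and 39.7 in the inhibitor libraries (log2 fold change 1.703, SE 0.224, edgeR adjusted p = 0.000673), with inhibitor replicate 1 the highest for both. Ribosome biogenesis genes, in contrast, fell in 20 of 34, all tested, and rose in 2, NPM1 and ODC1 (24 and 1 with library totals). NOP56, a core protein of box C/D particles, had 303, 317 and 307 CPM in the vehicle libraries and 135, 104 and 108 in the inhibitor libraries (log2 fold change -1.42, SE 0.119, edgeR adjusted p = 0.000111). POLR1A, the large subunit of RNA polymerase I, had 125, 125 and 142 CPM in the vehicle libraries and 41.7, 50.2 and 53.7 in the inhibitor libraries (log2 fold change -1.43, SE 0.123, edgeR adjusted p = 0.000121). In the network of MYC and its partners 3 of 11, all tested, rose and 3 fell. The antagonists of MYC did not share a direction. MXD1 rose from 3.099, 2.18 and 3.21 to 34.5, 17.7 and 16.3 CPM (log2 fold change 3.01, SE 0.329, edgeR adjusted p = 0.0003). MXI1 rose from 28.8, 31.8 and 27.8 to 84.99, 74.9 and 73.9 (log2 fold change 1.403, SE 0.108, edgeR adjusted p = 8.12e-05). MXD4, of the same family as MXD1, fell from 45.01, 46.2 and 43.9 to 22.3, 27.6 and 28.5 (log2 fold change -0.78, SE 0.122, edgeR adjusted p = 0.00142). MAX, the partner that MYC and these antagonists share, fell from 51.1, 48.0 and 50.7 to 34.8, 28.3 and 30.7 (log2 fold change -0.68, SE 0.112, edgeR adjusted p = 0.00181). The other rise was MLX (0.601) and the other fall MGA (-0.39). MGA did not pass without vehicle replicate 1 or 3 or inhibitor replicate 2 or 3 (edgeR adjusted p = 0.0863 to 0.125).

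**Figure D4:**
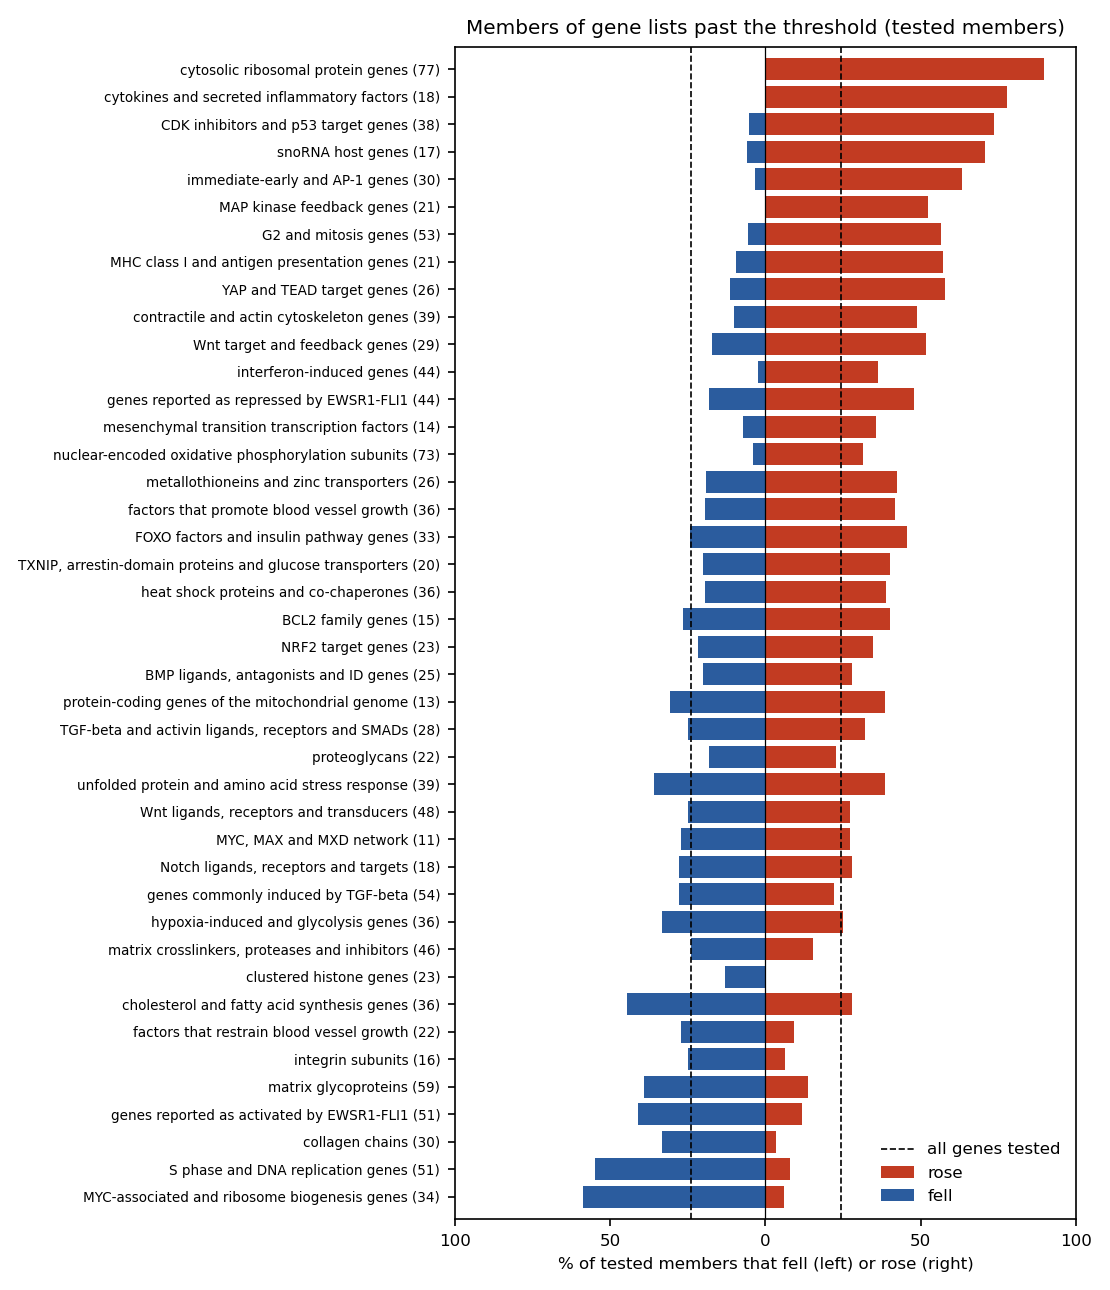
Percentage of tested genes that rose (red, right) or fell (blue, left) in each gene list of at least 10 tested genes, with the number tested in brackets and dashed lines at the shares of all genes tested, 24.4% and 23.8%. The counts use TMM scaling, and with library totals the balance between rises and falls turned for some lists near the middle, as stated in the text for Wnt ligands and receptors, TGF-β ligands and receptors and oxidative phosphorylation.

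Many immediate-early genes and genes of MAP kinase feedback rose. CYR61, a matricellular gene induced by YAP and serum factors, had 112, 78.6 and 104 CPM in the vehicle libraries and 1743, 1429.9 and 1492 in the inhibitor libraries (log2 fold change 3.99, SE 0.166, edgeR adjusted p = 1.43e-05). DUSP1, a phosphatase of MAP kinases, had 21.2, 20.6 and 19.01 CPM in the vehicle libraries and 318, 232 and 233 in the inhibitor libraries (log2 fold change 3.69, SE 0.157, edgeR adjusted p = 1.43e-05). ATF3, a stress-induced factor, had 18.4, 8.51 and 17.8 CPM in the vehicle libraries and 179, 213 and 163 in the inhibitor libraries (log2 fold change 3.63, SE 0.292, edgeR adjusted p = 9.2e-05). FOS, of the AP-1 complex, had 21.4, 14.1 and 22.02 CPM in the vehicle libraries and 67.1, 132 and 143 in the inhibitor libraries (log2 fold change 2.57, SE 0.302, edgeR adjusted p = 0.000407), with inhibitor replicate 1 lowest in its group. In all 19 of 30 immediate-early genes tested of 31 listed rose and 1, BATF3, fell (18 and 1 with library totals), and 11 of 21 MAP kinase feedback genes tested of 22 rose and 0 fell (10 and 0), with medians of 1.44 and 0.67. Without vehicle replicate 2 and inhibitor replicate 1 together these counts were 24 and 1 and 13 and 4. Of 26 YAP targets tested of 28 listed 15 rose and 3 fell, WWC1, FJX1 and IGFBP3. AMOTL2, which holds YAP at junctions, rose from 85.8, 122 and 93.6 to 329, 457 and 394 CPM (log2 fold change 1.97, SE 0.173, edgeR adjusted p = 0.000128). CTGF rose from 148, 98.8 and 149.9 to 469, 460.4 and 515 (log2 fold change 1.87, SE 0.167, edgeR adjusted p = 0.000136). Actin and contractile genes rose in 19 of 39, all tested, and fell in 4, TAGLN2, TPM3, MYH10 and MYLK (15 and 8 with library totals). ACTG1, a cytoplasmic actin, had 4046, 3870.01 and 4081 CPM in the vehicle libraries and 9625, 7965 and 8806 in the inhibitor libraries (log2 fold change 1.14, SE 0.1, edgeR adjusted p = 0.00013). FHL2, a LIM protein, had 34.9, 31.4 and 35.3 CPM in the vehicle libraries and 93.4, 85.1 and 86.9 in the inhibitor libraries (log2 fold change 1.38, SE 0.0998, edgeR adjusted p = 6.98e-05). Of 14 transition factors tested of 18 listed 5 rose and 1 fell (9 and 2 without both libraries that stand apart). SNAI2 rose from 15.6, 9.36 and 14.2 to 72.1, 60.3 and 58.3 CPM (log2 fold change 2.29, SE 0.199, edgeR adjusted p = 0.000125). ZEB1 rose from 14.9, 14.1 and 16.4 to 54.4, 51.4 and 44.1 CPM (log2 fold change 1.72, SE 0.126, edgeR adjusted p = 7.15e-05). MYLK did not pass without vehicle replicate 2 or 3 or inhibitor replicate 2 or 3 (edgeR adjusted p = 0.0531 to 0.0712), and WWC1 without vehicle replicate 1 or 2 or inhibitor replicate 2 or 3 (edgeR adjusted p = 0.0532 to 0.0912).

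Most genes tested of a list of cytokines and inflammatory factors rose. CCL2, a chemokine for monocytes, had 22.4, 11.7 and 23.98 CPM in the vehicle libraries and 212, 153 and 149 in the inhibitor libraries (log2 fold change 3.15, SE 0.283, edgeR adjusted p = 0.000138). NFKB2, an NF-κB subunit gene that is itself a target, had 14.2, 11.6 and 13.98 CPM in the vehicle libraries and 35.1, 44.4 and 45.5 in the inhibitor libraries (log2 fold change 1.65, SE 0.148, edgeR adjusted p = 0.000137). CXCL8, interleukin 8, had 226 counts in inhibitor and 0 in vehicle libraries, at least 95.5-fold higher with the vehicle group set at 3 counts (edgeR adjusted p = 0.000883). IL24, a cytokine of the interleukin 10 family, rose from 0.357, 0.0469 and 0.501 to 19.2, 13.5 and 15.3 CPM (log2 fold change 5.73, SE 0.525, edgeR adjusted p = 0.000147). IL24 is not on the list and is named because it was among the 12 largest rises. Of 18 tested of 33 listed 14 rose and 0 fell. Genes near 0 in vehicle libraries, such as CXCL8, passed the filter only through their inhibitor counts. The share that rose is thus partly set by the filter. With every gene of at least 1 count kept, 18 of 28 rose and 0 fell. Not all products of the list are secreted, as with NFKB2. The summed level of the leukocyte markers, given above, was also higher in inhibitor libraries, with CD68 (1.83) the only one of 5 tested that rose. The part of these markers in the rises was not tested. Interferon-induced genes rose in 16 of 44 tested of 46 and fell in 1, IFIT5 (12 and 2 with library totals, 21 and 1 without vehicle replicate 2 and inhibitor replicate 1 together). GBP1, a guanylate-binding GTPase, had 28.1, 27.01 and 26.3 CPM in the vehicle libraries and 146, 153 and 134 in the inhibitor libraries (log2 fold change 2.41, SE 0.1, edgeR adjusted p = 1.43e-05). IRF9, part of the interferon-activated complex, had 15.9, 15.4 and 18.8 CPM in the vehicle libraries and 64.4, 70.01 and 54.04 in the inhibitor libraries (log2 fold change 1.91, SE 0.14, edgeR adjusted p = 7.15e-05). MHC class I genes rose in 12 of 21, all tested, and fell in 2, ERAP1 and PDIA3 (8 and 4 with library totals). TAP1, the peptide transporter, had 26.3, 27.3 and 30.2 CPM in the vehicle libraries and 72.9, 102 and 94.8 in the inhibitor libraries (log2 fold change 1.69, SE 0.144, edgeR adjusted p = 0.000117). HLA-E had 82.3, 74.8 and 82.4 CPM in the vehicle libraries and 204, 189 and 182 in the inhibitor libraries (log2 fold change 1.26, SE 0.0969, edgeR adjusted p = 7.9e-05), with the proviso that HLA genes share reads with their copies. PDIA3 did not pass without vehicle replicate 1 or 3 or inhibitor replicate 2 or 3 (edgeR adjusted p = 0.0642 to 0.0985).

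The genes of vessel growth did not share a direction. VEGFA, the main growth factor of endothelium, had 32.4, 31.5 and 34.6 CPM in the vehicle libraries and 21.8, 15.2 and 18.7 in the inhibitor libraries (log2 fold change -0.82, SE 0.15, edgeR adjusted p = 0.00287). ANGPTL4, which inhibits lipoprotein lipase and acts on vessels, had 19.9, 27.5 and 20.1 CPM in the vehicle libraries and 3.09, 3.55 and 3.55 in the inhibitor libraries (log2 fold change -2.72, SE 0.185, edgeR adjusted p = 5.9e-05). Both fell without overlap. PGF, placental growth factor, had 0.466, 0.7503 and 0.651 CPM in the vehicle libraries and 4.599, 9.87 and 8.44 in the inhibitor libraries (log2 fold change 3.61, SE 0.363, edgeR adjusted p = 0.00022). NRP2, a neuropilin that semaphorins and VEGF-C bind, had 0.987, 0.399 and 0.551 CPM in the vehicle libraries and 5.004, 5.65 and 5.16 in the inhibitor libraries (log2 fold change 3.03, SE 0.356, edgeR adjusted p = 0.000409), both higher in every inhibitor library. In all 15 of 36 factors tested of 53 listed that promote vessel growth rose and 7 fell (13 and 9 with library totals). The rises include CXCL8, described above, which passed the filter only through its inhibitor counts. With every gene of at least 1 count kept, 16 of 49 rose and 9 fell. HGF, hepatocyte growth factor, was among those that rose (1.49, with an adjusted p of 0.15 in limma on log2(TPM + 1)) and ANGPT1, a ligand of the endothelial receptor TEK, among those that fell (-2.96). Of 22 factors tested of 32 listed that restrain it 2 rose, TIMP2 and CXCL14, and 6 fell. VASH1, vasohibin, fell from 36.1, 44.2 and 34.9 to 11.7, 10.9 and 14.6 CPM (log2 fold change -1.63, SE 0.159, edgeR adjusted p = 0.000191). SEMA3F, a semaphorin that binds NRP2, fell from 7.32, 6.31 and 7.54 to 0.809, 0.873 and 1.21 (log2 fold change -2.87, SE 0.248, edgeR adjusted p = 0.000122). CXCL14 rose from 8.26, 1.24 and 7.29 to 18.6, 71.8 and 78.8 CPM (log2 fold change 3.34, SE 0.726, edgeR adjusted p = 0.00646), with vehicle replicate 2 and inhibitor replicate 1 each far below their groups. THBS1, thrombospondin, had 1.67, 3.35 and 2.03 CPM in the vehicle libraries and 6.697, 2.77 and 3.12 in the inhibitor libraries (log2 fold change 0.83, SE 0.416, edgeR adjusted p = 0.135), with overlap, and passed as higher without vehicle replicate 2 and inhibitor replicate 1 (edgeR adjusted p = 0.0413). The number of restraining factors that fell was 3 without vehicle replicate 2, and 4 rose without inhibitor replicate 1. Without both libraries that stand apart 6 rose and 7 fell, and the median turned from -0.17 to 0.03. TIMP2 did not pass without vehicle replicate 3 or inhibitor replicate 2 or 3 (edgeR adjusted p = 0.0542 to 0.0672).

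Metabolic groups were mixed. In cholesterol and fatty acid synthesis, 16 of 36, all tested, fell and 10 rose (20 and 5 with library totals, and 6 rises without inhibitor replicate 2). LSS, lanosterol synthase, had 156, 209.5 and 173 CPM in the vehicle libraries and 57.6, 55.6 and 60.7 in the inhibitor libraries (log2 fold change -1.63, SE 0.127, edgeR adjusted p = 8.35e-05). MAT2A, which makes the methyl donor S-adenosylmethionine (ENSG00000168906.12; chromosome 2, 85539165 to 85545280 of hg38), had 292, 288 and 300.2 CPM in the vehicle libraries and 36.8, 17.9 and 25.0 in the inhibitor libraries (log2 fold change -3.47, SE 0.245, edgeR adjusted p = 6.62e-05). MAT2A is not on the list above and is named because it was among the 12 largest falls. Of 36 genes of hypoxia and glycolysis, all tested, 9 rose and 12 fell (7 and 15 with library totals). LDHA, lactate dehydrogenase, fell from 1558, 1345 and 1522 to 711, 916 and 827 CPM (log2 fold change -0.85, SE 0.12, edgeR adjusted p = 0.00091). NDRG1 rose from 18.2, 14.6 and 18.4 to 88.3, 67.3 and 65.4 (log2 fold change 2.11, SE 0.158, edgeR adjusted p = 7.58e-05).

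FOXO and insulin pathway genes rose in 15 of 33 tested of 36 and fell in 8 (12 and 9 with library totals). FOXO3 had 46.4, 39.8 and 50.7 CPM in the vehicle libraries and 108, 142 and 141 in the inhibitor libraries (log2 fold change 1.52, SE 0.145, edgeR adjusted p = 0.000176). Of 39 stress response genes tested of 40, 15 rose and 14 fell, which became 10 and 17 with library totals. DDIT3, the factor CHOP, rose from 29.9, 22.7 and 30.3 to 169, 105 and 99.5 CPM (log2 fold change 2.17, SE 0.226, edgeR adjusted p = 0.000251). SLC7A11, the cystine importer, fell from 36.4, 15.7 and 37.2 to 8.28, 9.34 and 10.6 (log2 fold change -1.66, SE 0.312, edgeR adjusted p = 0.00331). Heat shock genes had 14 rises and 7 falls of 36 tested of 37, 8 and 13 with library totals and 9 rises without vehicle replicate 3. Without both libraries that stand apart 16 rose and 12 fell. DNAJA1, a co-chaperone of HSP70, fell from 266, 253 and 248 to 92.02, 132 and 109.9 CPM (log2 fold change -1.203, SE 0.137, edgeR adjusted p = 0.000359).

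Transcripts of the mitochondrial genome differed by kind, with falls of most tRNA genes tested and rises of both ribosomal RNAs. MT-ND6, the only protein-coding gene read from the minus strand of the map, had 739, 531 and 603 CPM in the vehicle libraries and 80.6, 93.4 and 129 in the inhibitor libraries (log2 fold change -2.63, SE 0.204, edgeR adjusted p = 8.15e-05), a fall of 6.18-fold in the group means. Of 12 protein-coding genes on the plus strand 5 rose and 3 fell. With MT-ND6 this made 5 rises and 4 falls of 13, against 4 and 5 with library totals and 1 and 5 on TPM, and 2 falls without vehicle replicate 1. The ribosomal RNAs MT-RNR1 and MT-RNR2 both rose (0.98 and 1.48). MT-ND5, the neighbour of MT-ND6 on the other strand, fell from 1949.6, 1580.1 and 1848 to 576, 897 and 878 CPM (log2 fold change -1.19, SE 0.178, edgeR adjusted p = 0.00116). MT-ND2 rose from 2122, 1672 and 1932 to 2424, 4775 and 4308 (log2 fold change 1.01, SE 0.235, edgeR adjusted p = 0.00872), and had an adjusted p of 0.0614 in limma on log2(TPM + 1). Most tRNA genes tested fell on both strands, 5 of 7 tested of 8 on the minus and 4 of 5 tested of 14 on the plus strand. The falls with the most counts, MT-TN, MT-TY, MT-TC and MT-TE, were on the minus strand. Falls on the plus strand rest on few counts. In vehicle and inhibitor libraries MT-TL1 had 230 and 68, MT-TH 180 and 9, MT-TS2 127 and 1, and MT-TT 68 and 4. MT-TS1, on the minus strand with 8282 and 4687 counts, did not pass. MT-TY had 50.6, 61.2 and 53.6 CPM in the vehicle libraries and 4.53, 2.12 and 3.52 in the inhibitor libraries (log2 fold change -4.03, SE 0.258, edgeR adjusted p = 5.24e-05). MT-TN had 49.3, 62.1 and 63.1 CPM in the vehicle libraries and 4.45, 2.18 and 4.36 in the inhibitor libraries (log2 fold change -3.996, SE 0.271, edgeR adjusted p = 5.9e-05). tRNAs are poorly captured by selection for poly(A), and the strand setting of the counting is not given in the sources used here, so counts of such genes may hold reads of precursors or of the other strand. The share of all mitochondrial counts overlapped, at 4.04% to 4.83% and 3.85% to 5.12%. Of 73 nuclear genes of oxidative phosphorylation, all tested, 23 rose and 3 fell, NDUFA3, NDUFS6 and UQCR11, against 10 and 11 with library totals, and 13 rose without vehicle replicate 1 or 3 and 15 without inhibitor replicate 2. Without both libraries that stand apart 39 rose and 6 fell. With all 6 libraries 35.6% of these nuclear genes were called, against 48.3% of all genes tested. NDUFA3 did not pass without any vehicle replicate or inhibitor replicate 2 or 3 (edgeR adjusted p = 0.0575 to 0.0966), NDUFS6 without any vehicle replicate (edgeR adjusted p = 0.064 to 0.0832), and UQCR11 without vehicle replicate 2 or 3 or any inhibitor replicate (edgeR adjusted p = 0.058 to 0.107).

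**Figure D5:**
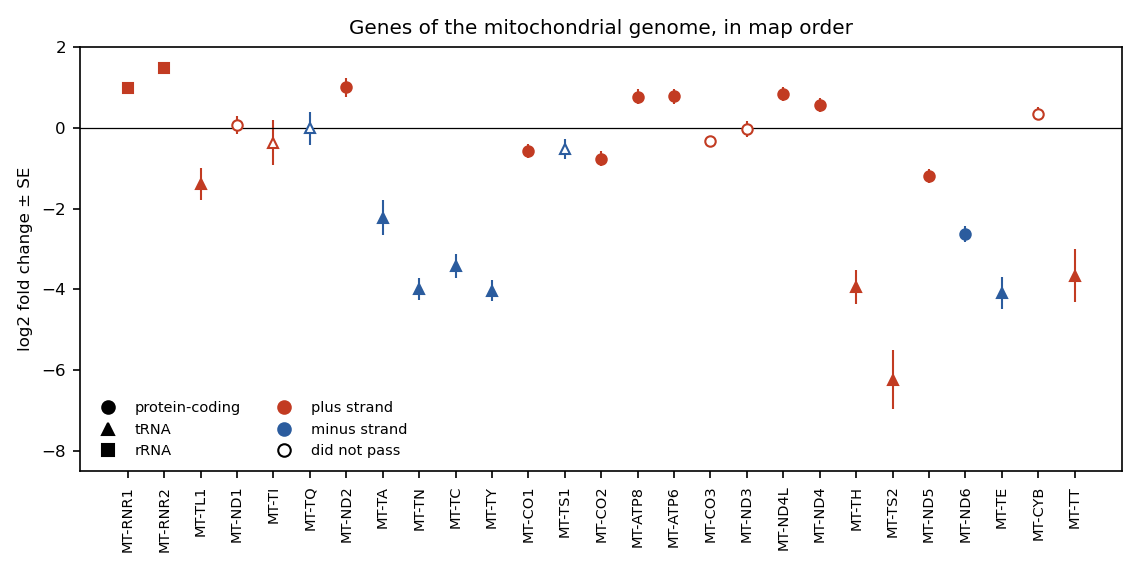
Log2 fold change with its standard error (vertical axis) for the 27 genes of the mitochondrial genome that were tested, in the order of the map, in red for the plus and blue for the minus strand and open where the test was not passed. MT-ND6 lies at -2.63, and the tRNA genes that passed lie between -6.24 and -1.40. The lowest, MT-TS2, had 127 counts in vehicle and 1 in inhibitor libraries.

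Many long noncoding genes fell. Of 598 lincRNA genes tested 7.36% rose and 39.1% fell, with a median of -0.88, and of 928 antisense genes 5.71% rose and 33.5% fell, against 28.2% and 22.8% of 13606 protein-coding genes. The median level of the lincRNA genes was 0.976 CPM in vehicle and 0.522 in inhibitor libraries, against 24.6 and 25.8 for protein-coding genes. Genes this low can pass the filter through the group where they are higher, and vehicle libraries had more genes with any count. The part of level and filter in these shares was not tested. LINC01614 had 386 counts in vehicle and 3 in inhibitor libraries, a ratio of 101 (exact 95% interval 34.5 to 494, counting error only; edgeR adjusted p = 0.000425). Of 9 long RNAs listed as retained in the nucleus 5 fell, MIAT, TUG1, NORAD, OIP5-AS1 and SNHG14, and 0 rose, with 8 falls without inhibitor replicate 1 or without both libraries that stand apart. MIAT did not pass without vehicle replicate 1 or 2 (edgeR adjusted p = 0.0527 to 0.0911). NORAD, which binds Pumilio proteins and is also known in the cytoplasm, had 229, 156 and 227 CPM in the vehicle libraries and 57.6, 59.4 and 73.1 in the inhibitor libraries (log2 fold change -1.69, SE 0.173, edgeR adjusted p = 0.000237). TUG1 had 196, 169 and 190.1 CPM in the vehicle libraries and 72.6, 44.2 and 49.04 in the inhibitor libraries (log2 fold change -1.74, SE 0.187, edgeR adjusted p = 0.000284). Every inhibitor library lay below every vehicle library for both, and the summed level of the list was 876 to 954 CPM in vehicle and 406 to 652 in inhibitor libraries. This list also serves as a measure of RNA preparation, and its part in the changes above was not tested. As the strand setting is unknown, counts of antisense genes may hold reads of the partner gene.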

How the data were processed

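Polyadenylated RNA of TC32 cells was sequenced with a stranded kit. Per the submitters' processing notes the authors used CASAVA 1.8.2, Trimmomatic 0.36, STAR 2.5.2a and RSEM 1.2.31 with hg38; the sources used here do not give the annotation release, strand setting or filters. The deposited values are expected counts (estimated counts per gene, not whole) and TPM, both made by the authors with RSEM. Expected counts were rounded, the 45 rows of pseudoautosomal copies were added to their partners, and 3 vehicle were compared with 3 inhibitor libraries in edgeR 4.0.16 (R 4.3.3): filterByExpr with a minimum count of 10, TMM, quasi-likelihood F test with 4 residual degrees of freedom, and Benjamini-Hochberg adjustment over 16890 genes at 0.05. The standard error is the log2 fold change over the square root of F. TPM was tested with limma 3.58.1 as log2(TPM + 1), a scale that understates the change of low genes, and DESeq2 1.42.0 was an alternative. Coordinates come from GENCODE 29, which held 57895 of 58233 gene IDs without version, and promoters from RefSeq.

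The groups, the 48 gene lists and the rule for named genes were chosen with earlier results of these data known. That rule took the 12 largest rises and 12 largest falls at an adjusted p under 0.05, with no overlap, at least 5 CPM in the higher group and a symbol that is not a clone name, a panel, and up to 4 members of each list with the smallest adjusted p; other genes were named after their values were seen, as members of a list or because they had few counts. Leaving out vehicle replicate 2 and inhibitor replicate 1 together was chosen after seeing the data. Some genes are not reported here.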

Additional observations from a re-analysis of the deposited data

How the results depend on the processing

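Another set of factors (RLE), DESeq2, limma-voom, other filters on low counts, unrounded counts, an offset for effective length and all 9 libraries in 1 fit called 7377 to 8895 genes. At an adjusted p under 0.01, 5233 genes passed, 2433 of them falls, and against a fold of 1.5 (glmTreat) 3322 passed, 1522 up and 1800 down, which follows from the stricter thresholds. On log2(TPM + 1) 2510 genes rose, on log2(TPM + 0.1) 2478, and 2236 changed at least 2-fold on the first; the cause was not tested. Leaving out 1 library gave 6411 to 9239 calls, 3323 to 4593 rises, 3088 to 4646 falls and 3272 to 4089 calls of at least 2-fold. Same-numbered libraries deviated from their group means with correlations of -0.03, -0.20 and 0.09, and not every library correlated best with its own. With 3 libraries a group these values cannot tell whether same-numbered libraries were handled together. With the replicate number as a block 7227 genes passed, and 6 of the named genes no longer did.

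Over 200 named genes and 21 alternatives, 3937 values kept direction and side of the threshold, 197 no longer passed, 26 newly passed and 33 changed sign. Apart from SMAD5, which was at 0.091 with the offset for effective length, the genes that changed sign had not passed the test. With library totals the log2 fold change was -0.191 for MYC, -0.074 for SMAD7, -0.149 for SKIL, -0.046 for ID1, -0.083 for COL3A1 and -0.0081 for FLI1. On log2(TPM + 1) and log2(TPM + 0.1) it was -0.289 and -0.290 for MYC, -0.197 and -0.220 for SMAD7, -0.158 and -0.161 for ID1, -0.115 and -0.118 for COL3A1, -0.070 and -0.073 for FLI1, and -0.074 and -0.179 for THBS1. MYC was at -0.032 with a minimum count of 50 and at -0.069 with the length offset, and FN1 at 0.0036 with all 9 libraries. Leaving out 1 library, or both that stand apart, gave -0.109 to 0.0944 for MYC, -0.112 to 0.165 for SKIL, -0.0554 to 0.53 for ID1, -0.378 to 0.0169 for ID3, -0.117 to 0.286 for COL3A1 and -0.168 to 0.157 for FN1. Without vehicle replicate 2 and inhibitor replicate 1 together MYC was at -0.109, SKIL at -0.112, ID3 at 0.017 and FN1 at 0.053. With library totals COL11A1, NPM1, ORC1, RRM1 and TIMP2 no longer passed, and on log2(TPM + 1) these and CDT1, COL4A3, HGF, MIAT, MLX, MT-ND2, MYLK and SMAD5. The cause was not tested. With 3 libraries a group and a common biological coefficient of variation of 20.9%, genes of low count have wide errors.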
